A study of Mus musculus with 4 samples.

Results

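Matricellular proteins are secreted into the extracellular matrix, where they act more on cell adhesion and signalling than as structural fibres. The 10 genes described here were chosen by name for this functional class, and all 10 were found among the 22691 genes of the table. They were the thrombospondin genes Thbs1, Thbs2 and Thbs3, the CCN genes Ctgf, Cyr61 and Nov, and Tnc, Postn, Sparc and Fn1. The last 4 encode tenascin C, periostin, osteonectin and fibronectin. Fibronectin itself forms fibrils, so Fn1 belongs to the class only in a broad sense. RNA came from mouse embryonic fibroblasts of female E13.5 fetuses, in 2 libraries with the genotype Smchd1 MD1/MD1; Xist deltaA/+ (MD1) and 2 libraries with Smchd1 +/+; Xist deltaA/+ (WT). Both groups therefore carried Xist deltaA on 1 X chromosome, inherited from the B6 mother, and both had fathers that were F1 males of JF1 and B6. Smchd1 encodes a chromatin protein with a part in X inactivation, and the study addressed its role in setting up the chromatin states that keep the inactive X silent. The labels do not say from how many fetuses or cultures the libraries came.

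In textbook descriptions, thrombospondins and CCN proteins bind integrins, heparan sulphate and growth factors, and thrombospondin 1 can release TGF-beta from its latent complex. Ctgf and Cyr61 are well known targets of the coactivators YAP and TAZ, which act through TEAD factors, and Ctgf is also induced by TGF-beta. Fibronectin is assembled into fibrils by fibroblasts through integrin alpha5 beta1 and gives tenascin C, periostin and collagens a scaffold to bind to.

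The table gave RNA levels, not split by allele, as FPKM (fragments per kilobase of transcript, scaled to the sequencing depth). There was 1 mean per group and no value per library. Each MD1 and WT level is therefore a mean over 2 libraries without a spread, and no difference between the groups could be tested. Levels are given per transcript length, so genes can be ranked against each other, but the means do not show which neighbours in the order differ beyond the spread of the libraries. Ratios are log2 of (FPKM + 1) in MD1 over WT, which understates the ratio of low genes. Counts past a fold bound use these ratios, so a low gene can exceed the bound in FPKM without being counted. They were formed for 11399 genes with a mean of at least 1 FPKM and above 0 in both groups, called tested genes here. In RNA from whole cultures, fewer cells of a type and less RNA per cell cannot be told apart, and the groups may also differ in autosomal JF1 segments passed on by the F1 fathers, which cannot be told apart from the genotype. Smchd1 itself had 1.94 FPKM in MD1, or 13.1% of the 14.7 FPKM in WT. Of 12 fibroblast markers all were detected in both groups, with Vim at 2802 FPKM in MD1 and 2790 FPKM in WT, as the labelled cell type would have.

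Several of the 10 genes were among the more abundant RNAs of these fibroblasts, while Nov and Thbs3 were low. In MD1, 6 of the 10 genes had 100 FPKM or more, a level reached by 3.35% of all genes in the table, and in WT 7 of the 10 did, against 3.33% of all genes. The order of levels in MD1 was Ctgf, Sparc, Fn1, Cyr61, Tnc, Postn, Thbs2, Nov and Thbs3, with Thbs1 listed at 0. In WT the order was Sparc, Thbs1, Ctgf, Cyr61, Fn1, Tnc, Postn, Thbs2, Thbs3 and Nov. With Thbs1 left out, Fn1 ranked 3 of the 9 in MD1 and 4 of the 9 in WT, while Sparc ranked 2 in MD1 and 1 in WT. These 9 genes summed to 4356 FPKM in MD1 and 3963 FPKM in WT, a ratio of 1.10.

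**Figure D1:**
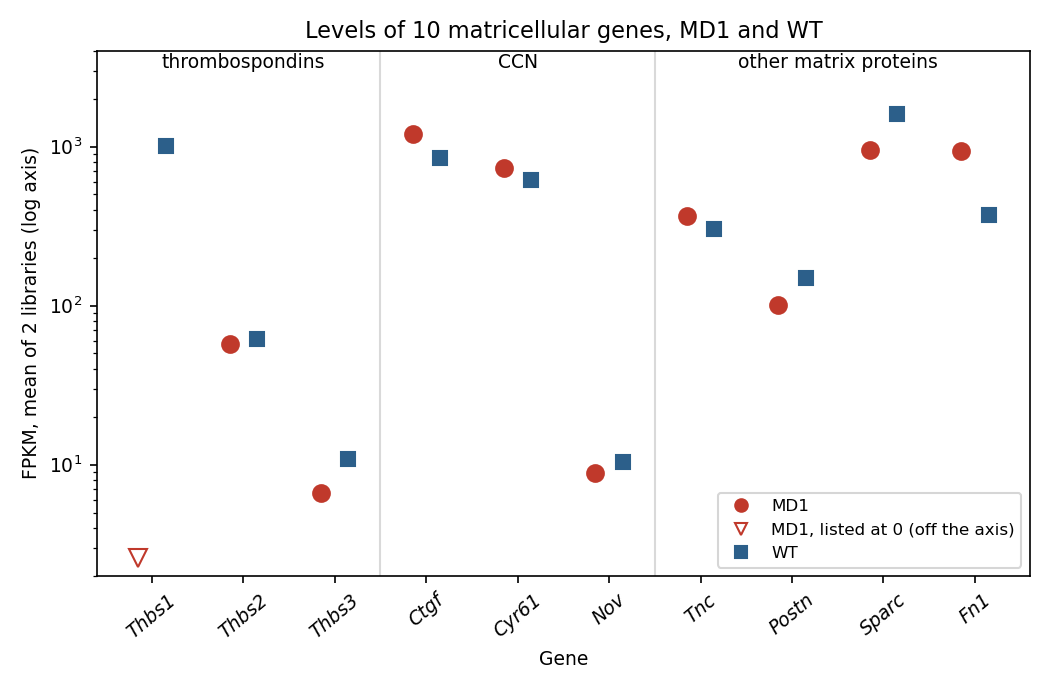
FPKM (log axis, mean of 2 libraries as deposited, without error bars) of the 10 matricellular genes in MD1 (circles) and WT (squares). Fn1 lay at 940.4 in MD1 and 370.2 in WT, Sparc at 957 in MD1 and 1590.3 in WT, and the open triangle marks Thbs1, which was listed at 0 in MD1 and had 1012 in WT.

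Of the 9 genes with a ratio, 4 were higher and 5 lower in MD1, and 1 (Fn1) passed a 2-fold bound. At that bound 1.39% of all tested genes were higher and 2.81% were lower in MD1, so a single gene of 9 says little about the class. Fn1 is also a member only in a broad sense. Of these 9 genes, 0 were at least 2-fold lower. With a bound of 1.5-fold, 1 was higher (Fn1), against 6.05% of tested genes, and 2 were lower (Sparc and Thbs3), against 7.65%. The median log2 ratio of the 9 genes was -0.086, beside 0.0058 over all tested genes, and their mean was 0.012, of the opposite sign. The genes therefore did not share a direction.

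Fibronectin is the adhesive scaffold of the early matrix, and its gene Fn1 (chromosome 1, 71632047 to 71699808, mm9, minus strand) had the largest ratio of the 9, while the difference in FPKM was larger for Sparc. Fn1 had 940.4 FPKM in MD1 and 370.2 FPKM in WT, a ratio of 2.54 (log2 1.34). Of all tested genes, 2.12% had a larger ratio in either direction. Among the 768 tested genes with a mean of 100 FPKM or more, the Fn1 ratio ranked 7, and 1.43% of these abundant genes were higher and 2.47% lower in MD1 by 2-fold or more. FPKM multiplied by mRNA length estimates how much of a library a gene takes up. With the longest coding transcript in GENCODE (8315 bases), Fn1 had the largest such value of 19945 genes in MD1, at 7820 FPKM times kb, and ranked 26 in WT, at 3079 FPKM times kb. The neighbouring gene Atic had 100.2 FPKM in MD1 and 73.7 FPKM in WT (log2 0.44), and no gene of the table overlapped Fn1.

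Sparc (chromosome 11, 55207661 to 55233582, mm9, minus strand), which encodes a collagen-binding glycoprotein, was the most abundant of the 10 genes in WT. It had 957 FPKM in MD1 and 1590.3 FPKM in WT, so the MD1 level was 60.2% of the WT level (log2 -0.73). A larger ratio in either direction was found for 8.55% of tested genes. The level of Sparc relative to Fn1 was 1.02 in MD1 and 4.30 in WT, so these RNAs were close to equal per length in MD1 and far apart in WT.

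Tenascin C and periostin are both induced in remodelling tissue and bind fibronectin, but their genes differed in direction. Tnc (chromosome 4, 63620819 to 63708049, mm9, minus strand) had 364 FPKM in MD1 and 301 FPKM in WT, a ratio of 1.21 (log2 0.27). Postn (chromosome 3, 54165029 to 54194963, mm9, plus strand) had 101 FPKM in MD1 and 149.7 FPKM in WT, or 67.2% of the WT level (log2 -0.57). The level of Tnc relative to Postn was 3.62 in MD1 and 2.01 in WT. Ratios larger in either direction were found for 39.5% of tested genes beside Tnc and for 14.4% beside Postn.

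The CCN genes encode small secreted proteins built from the same modules. Ctgf (chromosome 10, 24315248 to 24318488, mm9, plus strand) had 1192 FPKM in MD1 and 851 FPKM in WT, a ratio of 1.40 (log2 0.48), and was the most abundant in MD1 of the 9 genes without Thbs1. Cyr61 (chromosome 3, 145309935 to 145312949, mm9, minus strand) had 729 FPKM in MD1 and 618 FPKM in WT, a ratio of 1.18 (log2 0.24). Both were thus higher in MD1 by less than 1.5-fold, and ratios larger than theirs in either direction were found for 18.7% and 44.9% of tested genes. Nov (chromosome 15, 54577483 to 54585316, mm9, plus strand), whose protein can oppose the action of Ctgf, was low in both groups, with 8.93 FPKM in MD1 and 10.4 FPKM in WT (log2 -0.20). The 3 CCN genes summed to 1930 FPKM in MD1 and 1480 FPKM in WT.

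Promoters of 6 of the 10 genes were found in the RefSeq table (Cyr61, Tnc, Postn, Sparc, Thbs2 and Thbs3, in GRCm38.p6), which spans 250 bases before to 50 bases after each start. The 3 below are those of the 6 with a match to a motif searched, and their genes lay on both sides of the WT level. Cyr61 and Tnc lay above it and Postn below it. Sparc, Thbs2 and Thbs3, which had no match, also lay below it. They are written 5′ to 3′ on the strand of the gene, and capitals mark GGAATG (the core that TEAD factors bind) on either strand and TATAAA on the strand of the gene. Where a gene had 2 starts in the table, the second one is shown, and the first start of Postn had no match.
Cyr61, chr3:145649936-145650235, minus strand: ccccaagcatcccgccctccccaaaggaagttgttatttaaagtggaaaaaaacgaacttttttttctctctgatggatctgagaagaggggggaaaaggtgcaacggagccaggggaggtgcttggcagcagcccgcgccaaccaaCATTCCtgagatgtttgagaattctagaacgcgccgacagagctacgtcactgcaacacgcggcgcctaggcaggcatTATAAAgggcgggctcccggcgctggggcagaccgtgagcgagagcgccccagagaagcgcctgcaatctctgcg
Tnc, chr4:64046887-64047186, minus strand: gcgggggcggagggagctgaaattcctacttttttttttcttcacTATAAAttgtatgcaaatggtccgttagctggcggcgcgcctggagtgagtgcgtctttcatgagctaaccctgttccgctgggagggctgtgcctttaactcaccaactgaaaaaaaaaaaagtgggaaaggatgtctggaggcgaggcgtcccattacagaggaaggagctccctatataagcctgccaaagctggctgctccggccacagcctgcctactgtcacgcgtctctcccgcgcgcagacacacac
Postn, chr3:54360857-54361156, plus strand: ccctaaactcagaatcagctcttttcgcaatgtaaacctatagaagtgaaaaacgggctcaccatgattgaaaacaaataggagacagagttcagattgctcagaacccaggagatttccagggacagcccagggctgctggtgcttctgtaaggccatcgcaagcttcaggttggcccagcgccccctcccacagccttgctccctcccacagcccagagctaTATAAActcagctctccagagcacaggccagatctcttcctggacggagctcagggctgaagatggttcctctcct
In Cyr61 the TEAD core stood as its reverse complement, with its first base 103 bases before the start, and TATAAA began 25 bases before the start. Postn had TATAAA beginning 26 bases before the start, while in Tnc it began 205 bases before the start shown. Only the exact run TATAAA was searched, so the run tatataag, which lies closer to the start in the Tnc sequence, is not marked or counted. Of 27025 genes with a promoter in the table, 16.6% held GGAATG and 9.77% held TATAAA within the same 300 bases of any start. Cyr61 was the 1 gene of the 6 with GGAATG, and 3 of the 6 (Cyr61, Tnc and Postn) held TATAAA anywhere within these 300 bases of any start. The AP-1 motif TGANTCA and the CArG box were searched on both strands and matched 0 of the 6, against 8.97% and 1.81% of all genes with a promoter. The motifs searched do not overlap each other in these promoters, and a match is a run of letters, not a measured binding site.

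Thrombospondins are multimeric glycoproteins that bind calcium and many matrix proteins. Thbs2 (chromosome 17, 14802507 to 14831269, mm9, minus strand), an inhibitor of angiogenesis, had 57.7 FPKM in MD1 and 61.3 FPKM in WT (log2 -0.086), the ratio closest to 1 among the 9 genes. Thbs3 (chromosome 3, 89019109 to 89030759, mm9, plus strand), known from cartilage and bone, had 6.61 FPKM in MD1 and 10.8 FPKM in WT, or 61.0% of the WT level (log2 -0.64). Thbs3 lies in a gene-dense stretch, and 14 other genes of the table lay within 100 kb. Of the 11 that were tested, 10 had lower values in MD1 and 1 had a higher value, with a median log2 ratio of -0.34, while 49.2% of all tested genes were lower. The nearest was Mtx1 on the opposite strand, 851 bases away, with 20.97 FPKM in MD1 and 24.1 FPKM in WT (log2 -0.19). The lower level of Thbs3 was therefore shared in direction, though not in size, by most of its neighbours.

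Thbs1 (chromosome 2, 117937658 to 117952869, mm9, plus strand), whose product activates latent TGF-beta and restrains angiogenesis, was listed at 0 in MD1 and had 1012 FPKM in WT. In WT it ranked 34 among all genes of the table and supplied 20.3% of the summed FPKM of the 10 genes, with a level 16.5 times that of Thbs2. A listed 0 can be a failed estimate in such a table, which has no column that would say so, and no ratio was formed. Thbs1 was the 1 gene listed at 0 in a group that had 1 FPKM or more in the other, among 11670 genes with 1 FPKM or more in either group. The next highest WT level among genes listed at 0 in MD1 was 0.889 FPKM (Cst9), and the highest MD1 level among genes listed at 0 in WT was 0.802 FPKM (Ifi27l2a). Of 24 genes listed as widely expressed, among them the fibroblast marker Vim, none was at 0 in either group. The lowest was Ppia with 0.977 FPKM in MD1 and 0.875 FPKM in WT. Ppia lay far below the next lowest, Tbp, with 15.5 FPKM in MD1 and 13.0 FPKM in WT. A value above 0 therefore need not be a sound estimate. Very low values of abundant genes did occur in both directions, among them ribosomal protein genes, which have near-identical copies in the genome. Whether such copies bear on their FPKM was not tested. Named after their values were seen, 4 genes other than Thbs1 had 100 FPKM or more in WT and under 5% of that level in MD1. They were Rps12 (3.26 FPKM in MD1 and 483 FPKM in WT), Rpl23a (3.26 FPKM in MD1 and 468 FPKM in WT), Rpl11 and Rps13. The reverse held for 4 genes, Rpl24 (273 FPKM in MD1 and 2.79 FPKM in WT), Rpl10, Cxcl5 and Saa3. Cxcl5 and Saa3 are not ribosomal protein genes. Which of these low values are poor estimates and which are differences in RNA was not tested.

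The neighbours of Thbs1 and the genes above it in FPKM times mRNA length were not listed at 0 in MD1. Both neighbours of Thbs1 within 100 kb had values above 0, with Fsip1 at 0.568 FPKM in MD1 and 0.43 FPKM in WT and Gm13986 at 0.5002 FPKM in MD1 and 0.553 FPKM in WT. Both were under 1 FPKM and had no ratio, so they cannot show how this region differed between the groups. By FPKM times mRNA length Thbs1 ranked 7 in WT, at 5921 FPKM times kb with 5848 bases. The 6 genes above it in WT (Col1a1, Tpm1, Eef1a1, Actb, Acta2 and Vim) had MD1 levels of 1081 to 3588 FPKM. Values of other genes cannot show whether the estimate for Thbs1 failed. Whether the RNA of Thbs1 differed between MD1 and WT fibroblasts was not tested and cannot be read from this table.

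**Figure D2:**
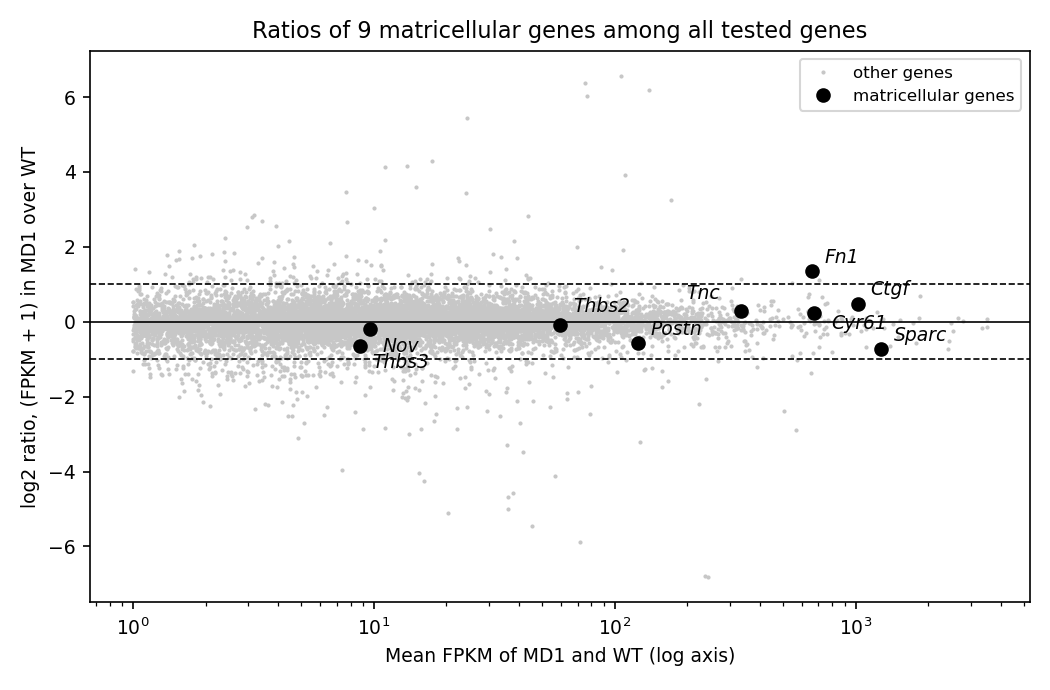
Log2 ratio of (FPKM + 1) in MD1 over WT against the mean FPKM of both groups (log axis), with 1 grey point per tested gene, the 9 matricellular genes with a ratio in black and dashed lines at 2-fold. Fn1 lies above the upper line at 1.34, and Sparc, Thbs3 and Postn lie between 0 and the lower line at -0.73, -0.64 and -0.57.

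How far single libraries of a group differ could be read from X-linked genes alone, for which allele-specific reads were given per library. These reads totalled 704635 and 806626 in the MD1 libraries and 544330 and 521768 in the WT libraries. Over 331 X-linked genes with a mean of 100 reads or more, the median absolute log2 difference between libraries, centred on the median gene, was 0.23 in MD1 and 0.27 in WT. A difference of at least 2-fold was found for 6.34% of these genes between the MD1 libraries and 7.25% between the WT libraries. The Fn1 ratio of 1.34 was exceeded by 3.32% of the X-linked genes in MD1 and 3.63% in WT, and the Sparc ratio by 10.9% in MD1 and 15.4% in WT. The Ctgf ratio was exceeded by 21.5% in MD1 and 25.4% in WT. These are differences between single libraries, while the ratios of the 9 genes compare means of 2, and X-linked genes need not vary like autosomal ones. All 10 matricellular genes are autosomal and had no allele-specific values in the table.

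**Figure D3:**
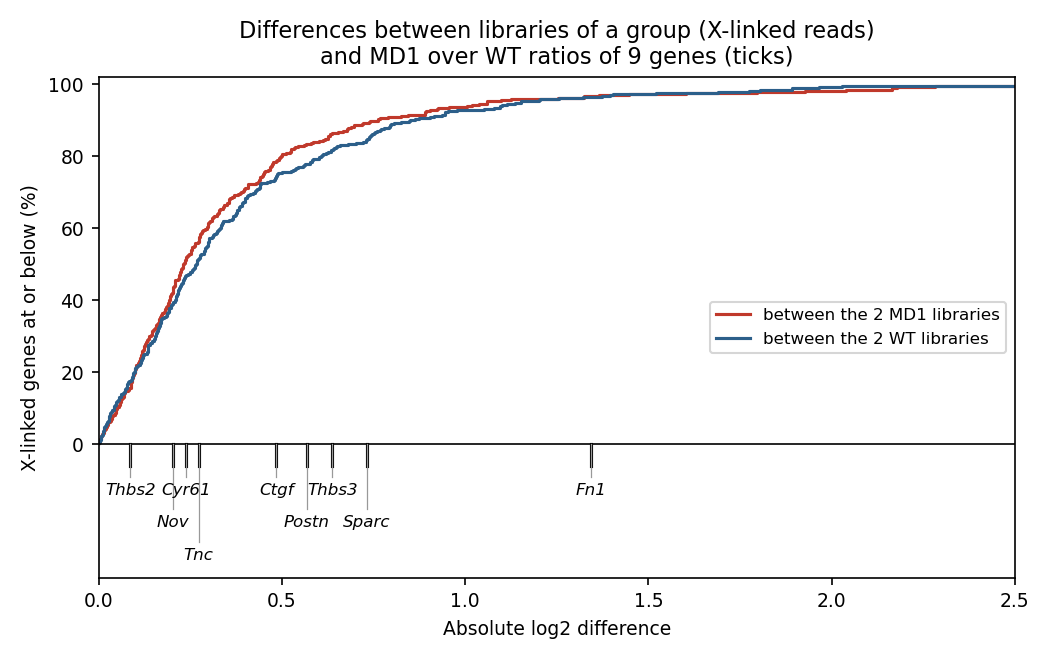
Cumulative percentage of 331 X-linked genes against the absolute log2 difference in allele-specific reads between the 2 MD1 libraries and between the 2 WT libraries, with ticks at the absolute log2 MD1 over WT ratios of the 9 matricellular genes. The tick of Fn1 at 1.34 leaves 3.32% of the genes in MD1 and 3.63% in WT beyond it, and the ticks of Thbs2, Nov, Cyr61 and Tnc lie at 0.27 or less.

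Other matricellular genes that were tested were mostly lower in MD1. Of 20 such genes 10 were tested, 9 with lower values and 1 (Smoc1) with a higher value. Their median log2 ratio was -0.56, and the 10 not tested had a mean below 1 FPKM in the 2 groups. Of all tested genes, 49.2% had lower values and 2.81% were at least 2-fold lower. The 1 gene past the 2-fold bound was Comp, the cartilage thrombospondin, at 0.264 FPKM in MD1 and 2.35 FPKM in WT. Named after their values were seen, Spp1 (osteopontin) had 421 FPKM in MD1 and 758 FPKM in WT, and Fstl1 had 314 FPKM in MD1 and 464 FPKM in WT. Comp and Spp1 are also cartilage and bone markers, and Tgfbi is also counted among the TGF-beta genes. The CCN relatives Wisp1 and Wisp2 had log2 ratios of -0.19 and -0.79.

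The listed matrix partners of periostin and fibronectin were mostly lower in MD1. Of 16 genes for collagens, lysyl oxidases, fibrillins, fibulins and Bmp1, 15 had lower values in MD1 and 1 (Fbln1) a higher value, and the median log2 ratio was -0.62, beside 49.2% of all tested genes with lower values. Lower by 2-fold or more were Col3a1 and Fbn2, against 2.81% of all tested genes. Col3a1, the type III collagen gene, had 78.7 FPKM in MD1 and 188.9 FPKM in WT. Fbn2, a fibrillin gene, had 4.70 FPKM in MD1 and 19.3 FPKM in WT. Fn1 thus lay on the other side of 0 from the fibrillar collagen genes it is deposited with, of which Col1a1 had 1081 FPKM in MD1 and 1688 FPKM in WT. Col6a3, a collagen VI chain gene outside the list and named after its values were seen, had 49.0 FPKM in MD1 and 13.2 FPKM in WT (log2 1.81), while the listed chain genes Col6a1 and Col6a2 had log2 ratios of -0.56 and -0.33.

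Receptors of matricellular proteins differed gene by gene. Of 23 genes 21 were tested, with 9 higher and 12 lower and a median log2 ratio of -0.030. The 1 gene at least 2-fold higher was Itga2, a collagen receptor subunit, at 7.03 FPKM in MD1 and 0.993 FPKM in WT. The 3 at least 2-fold lower were Itga4 (1.19 FPKM in MD1 and 11.3 FPKM in WT), Itga8 (2.22 FPKM in MD1 and 7.80 FPKM in WT) and Itga1 (1.81 FPKM in MD1 and 6.63 FPKM in WT). Itga4 and Itga8 encode integrin subunits that bind fibronectin, while Itga1 encodes a collagen receptor subunit. The 2-fold bound was passed upwards by 1.39% and downwards by 2.81% of all tested genes, of which 49.2% were lower in MD1. Itga5, named for its role as the main fibronectin receptor subunit, had 226 FPKM in MD1 and 150.1 FPKM in WT (log2 0.59), and its partner Itgb1 had 785 FPKM in MD1 and 959.8 FPKM in WT. Of the thrombospondin 1 receptors, Cd47 had 19.4 FPKM in MD1 and 17.02 FPKM in WT. Cd36 had 5.92 FPKM in MD1 and 2.83 FPKM in WT, with a log2 ratio of 0.85 once 1 FPKM was added, under the bound.

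Among 21 genes of TGF-beta signalling, 10 were higher and 11 lower in MD1, with a median log2 ratio of -0.042. Over all tested genes 49.2% were lower, and at the 2-fold bound 1.39% were higher and 2.81% lower. At least 2-fold lower were the ligand genes Tgfb2 (12.9 FPKM in MD1 and 30.4 FPKM in WT) and Tgfb3 (72.9 FPKM in MD1 and 149.6 FPKM in WT), and none was at least 2-fold higher. Tgfb1 had 28.3 FPKM in MD1 and 24.97 FPKM in WT. Among 23 genes of the YAP and TEAD pathway, 14 were higher and 9 lower, with a median of 0.038 and none past the 2-fold bound. Of the YAP targets, Ankrd1 had 200.3 FPKM in MD1 and 321 FPKM in WT (log2 -0.68) and Amotl2 had 138 FPKM in MD1 and 125 FPKM in WT (log2 0.14), so the targets Ctgf, Cyr61, Amotl2 and Ankrd1 did not share a direction.

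**Figure D4:**
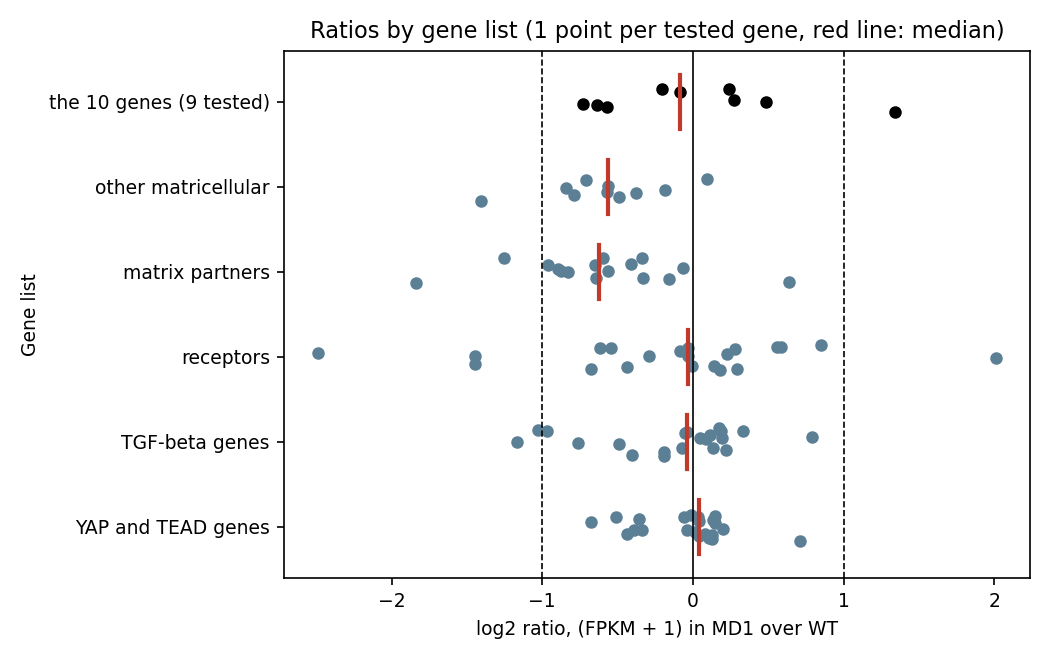
Log2 ratio of (FPKM + 1) in MD1 over WT for the tested genes of 6 lists, with 1 point per gene (jittered vertically), a red line at each median and dashed lines at 2-fold. The medians lie at -0.56 for other matricellular genes and -0.62 for matrix partners, and between -0.086 and 0.038 for the other lists.

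Markers of other cell types that make matricellular proteins also differed between the groups. For comparison, 49.2% of all tested genes were lower in MD1, 2.81% at least 2-fold lower and 1.39% at least 2-fold higher. All 7 tested skeletal muscle markers were at least 2-fold lower in MD1 (Acta1, Actc1, Des, Myh3, Myog, Tnnt1 and Tnnt3), and the 10 listed summed to 44.8 FPKM in MD1 and 160.9 FPKM in WT. Of 8 smooth muscle markers 5 were at least 2-fold lower (Actg2, Cnn1, Des, Myh11 and Mylk), with sums of 3529 FPKM in MD1 and 5833 FPKM in WT. Most of these sums came from Acta2 (1826 FPKM in MD1 and 3015 FPKM in WT) and Tagln (1429 FPKM in MD1 and 2136 FPKM in WT). Both were lower in MD1 by less than 2-fold. Whether these RNAs came from smooth muscle cells or from the fibroblasts themselves was not tested. Of 13 cartilage and bone markers 9 were tested, with 2 higher and 7 lower, and 4 were at least 2-fold lower (Alpl, Col11a1, Comp and Ibsp). The 2 higher were the lineage regulators Sox9 (7.10 FPKM in MD1 and 4.41 FPKM in WT) and Runx2 (9.03 FPKM in MD1 and 7.35 FPKM in WT). The list had sums of 560.3 FPKM in MD1 and 1050.1 FPKM in WT, and Matn1 was listed at 0 in MD1. The 12 fibroblast markers had 6 higher and 6 lower, 1 of them (Col3a1) at least 2-fold lower, with sums of 5358 FPKM in MD1 and 6367 FPKM in WT. Macrophage and blood markers summed to 121 FPKM in MD1 and 144 FPKM in WT, and endothelial markers to 17.6 FPKM in MD1 and 14.6 FPKM in WT. Epithelial markers summed to 83.5 FPKM in MD1 and 74.5 FPKM in WT. None of these markers passed the 2-fold bound with 1 FPKM added, with endothelial Flt1 (log2 0.99) and Emcn (log2 -0.99) just short of it. Cldn5 was listed at 0 in both groups, and Tie1 and Krt5 in MD1. Neural markers summed to 62.1 FPKM in MD1 and 36.3 FPKM in WT, with Stmn2 at least 2-fold higher and Map2 at least 2-fold lower. The part of these cell types in the levels of Sparc, Postn, Thbs3 and Fn1 was not tested.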

How the data were processed

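Polyadenylated RNA was sequenced after stranded library preparation, per the labels' protocols. The build mm9, Cuffdiff and Cufflinks 2.2.1 appear in the submitters' processing notes without their roles. For the aligner and the annotation, no name is given in the sources used here. RNA levels not split by allele were deposited as FPKM, as 1 mean per group. Allele-specific reads of X-linked genes were deposited as counts per library, and the JF1 fraction per library and group was deposited too but not used. Depth behind the FPKM values is unknown.

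Ratios were computed with a pseudocount of 1 FPKM in Python 3.11.15 (numpy 2.4.6, pandas 2.3.3). The calculation was tested on the WT values with known changes and small noise put in. That checks the arithmetic and not the spread between libraries. A test on values per library (limma) had been planned, but could not be fitted to group means. The rule for named genes took the 10 members, each tested gene of the other lists past 2-fold, genes of the lists listed at 0 in 1 group and at 100 FPKM or more in the other, and Smchd1. Other genes were named for their role, their position or a count they make up, after their values were seen. The members and lists were chosen with earlier results of these data known. Read differences between libraries used reads scaled to the library's allele-specific total, with 0.5 reads added. Starts were moved up by 1, to 1-based mm9 coordinates. mRNA lengths (GENCODE M21) and promoters (RefSeq, GRCm38.p6) were matched by symbol, older symbols included. A length was found for 87.9% of genes. A gene of 2 of the lists is not reported here.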

Additional observations from a re-analysis of the deposited data

How the results depend on the processing

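All 9 member ratios kept their sign with a pseudocount of 0.1 FPKM, quantile normalization, centring on the median gene, no filter on FPKM and a minimum mean of 5 FPKM. Of 45 such values 43 moved by under 0.1, and Tnc (0.37) and Sparc (-0.61) moved more under quantile normalization. Most of these values could not move far by design. The filters only add or drop genes, so they left each member ratio as it was. Centring took the same 0.0058 from every ratio. Only the pseudocount and quantile normalization could move member ratios by different amounts. Fn1 was the 1 member at least 2-fold higher under each of these. With a bound of 1.5-fold, 2 members were lower. Over all tested genes, 158 passed 2-fold upwards in MD1 and 320 passed it downwards. These counts were 259 and 494 with a pseudocount of 0.1 FPKM, 94 and 191 with a minimum mean of 5 FPKM, and 690 and 872 at 1.5-fold. The last follow from the lower bound and the stricter filter from fewer genes tested. No paired analysis was possible because the table gives 1 FPKM mean per group, and for the same reason no replicate could be left out. A single library could set any of the ratios.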

Other observations

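Allele-specific reads of single X-linked genes could differ far more between libraries of a group than the median gene. Among 331 genes with a mean of 100 reads or more, 3 differed by over 4 on the log2 scale. Cox7b, a cytochrome oxidase subunit gene, had 2047 and 26 reads in the MD1 libraries and 1491 and 1409 in the WT libraries. Morf4l2, which encodes a chromatin protein, had 90 and 6243 reads in the MD1 libraries and 4363 and 4183 in the WT libraries. Plp2, a membrane protein gene, had 0 reads in both MD1 libraries and 1225 and 0 in the WT libraries, while its mean level was 173 FPKM in MD1 and 84.2 FPKM in WT.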
